A study of Mus musculus with 8 samples.

Results

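Muc1, Muc4, Muc20, Psca, Oit1 and Arhgap36 were followed through RNA sequencing of mouse kidney cortex, as 6 of the 21705 gene names in the deposited table. Their rows were found by symbol. Psca, Oit1, Muc4 and Arhgap36 had been selected on their measured values in these libraries, by being nearly absent from 1 group and present in the other, so the size of that difference is described here and not tested. Muc1 and Muc20 had been chosen as mucins that the kidney makes constitutively, so their difference between groups was tested. The 4 libraries of the control group came from cortex of genotype Sav1+/+ given vehicle, and the 4 libraries of the other group from cortex of genotype Sav1-/- given tamoxifen. Both groups were of mixed background strain. For the age of the mice, the Cre driver and the deleted exons, nothing is given in the labels. The contrast joins genotype and treatment, so a difference cannot be assigned to loss of Sav1 alone. Sav1 is the scaffold protein that joins the kinases of the Hippo pathway.

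A mucin is a protein with a long stretch of serine and threonine residues to which O-linked sugars are attached. Muc1, Muc4 and Muc20 are anchored in the membrane. Muc1 lines the apical surface of distal tubule and collecting duct cells and sheds its outer chain, Muc4 can bind the receptor ErbB2 (Erbb2), and Muc20 was described in kidney as a binding partner of the receptor Met. Psca (prostate stem cell antigen) is a small Ly6-family protein held on the outer membrane by a glycolipid anchor and is best known from prostate and from the urothelium, the lining of the urinary tract. Oit1 (also named Fam3d) belongs to the FAM3 family of secreted, cytokine-like proteins. Arhgap36 is an intracellular protein of the RhoGAP family, known for inhibiting protein kinase A and for activating Hedgehog signalling. So 4 of the 6 genes encode proteins of the cell surface, and Oit1 and Arhgap36 do not.

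Loss of Hippo signalling is known to free the co-activators YAP and TAZ, which bind DNA through TEAD factors, so the sequence just upstream of each gene was searched for the TEAD core letters GGAATG on either strand (read as CATTCC on the reverse strand). RefSeq entries of build GRCm38.p6 matched 5 of the 6 genes, with 6 start sites because Arhgap36 has 2. In the 250 bases upstream of the start, the letters were found at 3 of the 6 start sites, once each, and 12.6% of all 32851 promoter windows of that length hold them. The 3 windows are shown because they are the ones with a match, and the capitals mark it. The Muc1 window is chr3:89228806-89229055 on the plus strand, the Muc4 window is chr16:32735636-32735885 on the plus strand and the Arhgap36 window is chrX:49463695-49463944 on the plus strand.
Muc1: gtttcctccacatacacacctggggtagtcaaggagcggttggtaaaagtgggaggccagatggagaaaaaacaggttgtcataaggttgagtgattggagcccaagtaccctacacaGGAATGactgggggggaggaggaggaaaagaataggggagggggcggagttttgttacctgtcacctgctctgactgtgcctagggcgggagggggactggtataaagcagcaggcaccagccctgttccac
Muc4: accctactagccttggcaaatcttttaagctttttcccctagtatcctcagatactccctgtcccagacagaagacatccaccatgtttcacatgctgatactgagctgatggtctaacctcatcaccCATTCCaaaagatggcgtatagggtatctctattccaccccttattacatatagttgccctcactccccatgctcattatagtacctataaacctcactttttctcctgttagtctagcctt
Arhgap36: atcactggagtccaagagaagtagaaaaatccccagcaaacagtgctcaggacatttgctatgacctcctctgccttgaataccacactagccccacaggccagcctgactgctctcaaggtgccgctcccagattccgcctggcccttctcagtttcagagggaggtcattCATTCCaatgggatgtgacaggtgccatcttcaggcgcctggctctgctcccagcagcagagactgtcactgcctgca
The match began 132 bases upstream of the start in Muc1, 122 bases upstream in Muc4 and 78 bases upstream in Arhgap36. The windows of Muc20, of Oit1 and of the other Arhgap36 start held none of these letters. The STAT letters TTCNNNGAA, present in 7.0% of all windows, and the AP-1 letters TGANTCA, present in 6.7%, were found in none of the 6 windows. With no STAT or AP-1 match, no match overlapped another. A match describes letters only, and the files hold no measurement of binding.

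Mucin genes carry tandem repeats, and repeats bear on how reads are assigned. In the longest annotated Muc4 transcript, 19.2% of all 30-base words occurred more than once, and 0.56% of 21842 genes had a share at least as high. For Muc1 the share was 3.52%, which 1.97% of genes reached, and for Muc20 it was 0.38%. Psca and Arhgap36 had no repeated word. The commonest word of Muc4 is shown as an example of such a repeat, in lower case because no letter is singled out.
Muc4 repeat: actcaaggttctacacctgccaccacacag
It occurred 9 times, all inside the coding region, and its commonest spacing was 372 bases, seen 5 times.

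The deposited values are RSEM estimates scaled within each library so that the upper quartile of the values above 0 lies at about 1000, and they are called values here. Low values fell on steps, from which the value of 1 read was taken. The Sav1+/+ libraries held about 20500000 to 25000000 reads and the Sav1-/- libraries 15700000 to 20900000, and 3 reads corresponded to values of 2.34 to 3.09. Sav1 itself had values of 1504, 1743, 959 and 1193 in the Sav1+/+ libraries and 983, 914, 982 and 714 in the Sav1-/- libraries. These ranges overlapped, and the log2 fold change was -0.56 (SE 0.19, adjusted p = 0.0220 with limma, exact two-sided permutation p = 0.0857). The call was lost without Sav1+/+ replicate 1 (adjusted p = 0.0611 with limma), without Sav1+/+ replicate 2 (0.0570) and with equal library totals (0.375). Xist had 1 read in all Sav1+/+ libraries together and values of 9280 to 16095 in the Sav1-/- libraries, while the Y-linked Ddx3y, Eif2s3y, Kdm5d and Uty were present in every Sav1+/+ library and at 0 in every Sav1-/- library. Genotype, treatment and these sex-chromosome transcripts separate the same libraries and cannot be told apart in any result below. The column headers repeat the same suffix numbers in both groups, under different naming, and do not say what they stand for. They also do not say whether the groups were prepared or sequenced together. If they were not, that difference would separate the same libraries too. Sav1-/- replicate 4 stood apart in several of the results, and values without it are given beside the levels that it moves most. In bulk tissue a change in the number of cells of a type and a change in RNA per cell cannot be told apart.

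Both constitutive mucins rose in the Sav1-/- cortex, Muc1 by 11.4-fold and Muc20 by 16.8-fold. Muc1 had values of 195, 226, 227 and 192 in the Sav1+/+ libraries and of 1647, 2139.8, 1718 and 5507 in the Sav1-/- libraries. The groups did not overlap, and the highest Sav1-/- value, in replicate 4, lay far above the other 3. The group means were 209.9 ± 19.2 and 2753 ± 1849 (SD, n = 4 each). The log2 fold change of Muc1 was 3.51 (SE 0.34, 95% interval 2.75 to 4.28), with an adjusted p of 1.86e-05 by limma and an exact two-sided permutation p of 0.0286, the smallest that 70 assignments allow. Without Sav1-/- replicate 4 the mean was 1835 and the log2 fold change 3.12.

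Muc20 started from a lower level. Its values were 26.3, 41.9, 51.7 and 46.4 in the Sav1+/+ libraries and 466, 779, 445 and 1418 in the Sav1-/- libraries. The groups were again apart, and replicate 4 was again the highest. The means were 41.6 ± 10.9 and 777 ± 454 (SD, n = 4 each). The log2 fold change of Muc20 was 4.07 (SE 0.37, 95% interval 3.23 to 4.90), with an adjusted p of 1.32e-05 by limma and an exact two-sided permutation p of 0.0286. Without Sav1-/- replicate 4 the mean was 563 and the log2 fold change 3.72. Of all tested genes, 43.9% were called higher in the Sav1-/- libraries, 25.2% lower and 69.1% in either direction, and in 41.0% every Sav1-/- library lay above every Sav1+/+ library. A call or a lack of overlap was therefore common. A rise as large as that of Muc1 was called in 2.33% of the tested genes.

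The tandem-repeat mucin Muc4 was close to absent from the control cortex. Its Sav1+/+ values were 2.72, 0, 0.957 and 0, which correspond to 3, 0, 1 and 0 reads. Its Sav1-/- values were 134, 264, 120.3 and 1024, with a mean of 385 ± 430 (SD, n = 4). Every Sav1-/- library had more than 100 reads of it, and replicate 4 had more than the other 3 together. Scaled to library depth, 4 reads against 1634 give a ratio of 384 (95% counting interval 150 to 1411), and without Sav1-/- replicate 4 the Sav1-/- mean was 173. The interval describes counting error of the pooled reads and is no test, because Muc4 was selected on this difference.

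Psca, the glycolipid-anchored antigen, had 0, 1, 1 and 0 reads in the Sav1+/+ libraries. Its Sav1-/- values were 297, 638, 32.4 and 1169, from 381, 653, 41 and 1188 reads. The spread was the widest of the 6 genes: the highest Sav1-/- library was 36.1 times the lowest, and replicate 3 was the low one. The Sav1-/- mean was 534 ± 491 (SD, n = 4), or 323 without replicate 4. The ratio of reads, scaled to depth, was 1064 (95% counting interval 294 to 8790).

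Oit1, the secreted FAM3 protein, was read only in Sav1+/+ replicate 2, with 2 reads, among the control libraries. Its Sav1-/- values were 131, 172, 137 and 919, with a mean of 340 ± 387 (SD, n = 4). Replicates 1 to 3 lay close together and replicate 4 stood far above them. Without replicate 4 the mean was 147. The ratio of reads was 683 (95% counting interval 189 to 5642).

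Arhgap36 likewise had 2 reads, both in Sav1+/+ replicate 2. Its Sav1-/- values were 188, 460.4, 206 and 229, with a mean of 271 ± 127 (SD, n = 4). Here replicate 2 was the highest and replicate 4 lay among the rest, so the mean without replicate 4 was 285. The ratio of reads was 567 (95% counting interval 157 to 4687). These intervals for Muc4, Psca, Oit1 and Arhgap36 cover counting error only and not the spread between libraries. The genes were selected on this same difference, so the intervals do not test it.

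**Figure D1:**
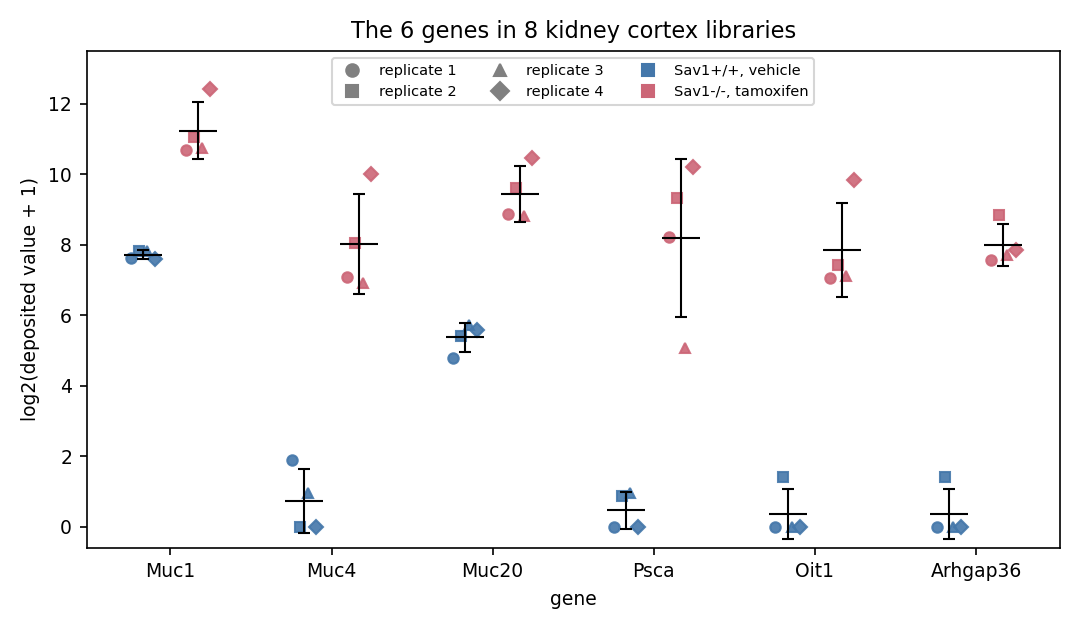
Each point is 1 library, plotted as log2(deposited value + 1) for each gene; marker shapes give the replicate number, and bars show the mean and SD of 4 libraries per group. The Sav1+/+ points of Psca, Oit1, Muc4 and Arhgap36 lie near 0, while those of Muc1 and Muc20 do not.

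Few genes met a joint cut of near-absence in the Sav1+/+ libraries and presence in the Sav1-/- libraries. Psca, Oit1 and Arhgap36 had been picked on these same values, so their place among them follows from that choice. Of the 21705 gene names, 10 (0.0461%) had at most 3 reads in all Sav1+/+ libraries together and a Sav1-/- mean of at least 50. By Sav1-/- mean they were Xist at 12229, Psca, the neutrophil-attracting chemokine Cxcl5 at 353, Oit1, Arhgap36, the urea transporter Slc14a2 at 144, Atp13a4 at 102, surfactant protein D (Sftpd) at 83.0, Spaca7 at 74.3 and the neurotensin receptor Ntsr1 at 70.3. Muc4, with 4 reads, fell just outside, next to the metalloproteinase Mmp7 with 5 reads and a Sav1-/- mean of 884. In all 31 genes had 4 to 10 Sav1+/+ reads and a mean of at least 50. Just below that level were Ugt2b35 at 48.9, the protease Prss22 at 46.0 and mesothelin (Msln), a surface protein of the lining of body cavities, at 45.9. Most of the mesothelin mean came from Sav1-/- replicate 4, with a value of 172 against at most 5.87 in the other 3. Of the 10 genes, 7 were highest in Sav1-/- replicate 4, as were 5247 of the 13677 tested genes.

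The spread among the Sav1-/- libraries divided the members. Replicate 4 was 6.26 times the mean of replicates 1 to 3 for Oit1, 5.92 times for Muc4, 3.62 times for Psca, 3.002 times for Muc1 and 2.52 times for Muc20. For Arhgap36 the ratio was 0.805, and the median over all tested genes was 0.978. A larger ratio was found in 0.10% of the tested genes for Oit1, 0.14% for Muc4, 0.32% for Psca, 0.60% for Muc1 and 1.08% for Muc20. Oit1, Muc4 and Psca were selected on these Sav1-/- values and passed the filter only through the Sav1-/- group. Their shares are therefore descriptive and no test. The 3 mucins, Psca and Oit1 thus shared their highest library, and replicate 2 was second in each of these 5 genes.

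Summed marker levels of cell types moved with the same library. The 13 proximal tubule markers, the reabsorbing segment that fills most of the cortex, summed to 56191 in Sav1-/- replicate 4, to 102404 to 153080 in the other Sav1-/- libraries and to 662305 to 735352 in the Sav1+/+ libraries. The 12 markers of collecting duct principal cells summed to 69968 in replicate 4, to 44176 to 60357 in the other 3 and to 22156 to 25247 in the Sav1+/+ libraries. The 11 markers of the thick ascending limb and distal tubule summed to 60784 in replicate 4 against 92690 to 109095 in the other 3. The proximal tubule and distal tubule sums were thus lowest, and the collecting duct sum highest, in the library with the most Muc1, Muc4 and Muc20 RNA. Umod, the most abundant distal marker, had 25262 in replicate 4 against 45621 to 59857 in the other 3. Single markers did not all follow their sum. Trpv5, Trpm6 and Kcnj1 were highest, and Aqp3 and Aqp4 lowest, of the Sav1-/- libraries in replicate 4. Aqp2 was highest, and the proximal tubule marker Slc22a12 lowest, in replicate 2. Intercalated cell markers summed to 22910 in replicate 4 and to 14881 to 19055 in the others, and macrophage and neutrophil markers to 10768 and to 7825 to 10701. In the limma fit 12 of 13 proximal tubule markers fell (median log2 fold change -2.25), 11 of 12 principal cell markers rose (1.73) and 7 of 10 intercalated cell markers rose (0.55). Over all tested genes 43.9% were called higher and 25.2% lower. The principal cell marker Elf5 passed the filter only through the group where it was high. Of 11 tested macrophage and neutrophil markers 9 rose (3.18), and of 11 thick ascending limb and distal tubule markers 3 rose and 2 fell (-0.17, or 0.18 without Sav1-/- replicate 4). S100a8 and S100a9, which were not called, had passed the filter only through the Sav1-/- group. The part of these cell types in the levels of the 6 genes was not tested.

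**Figure D2:**
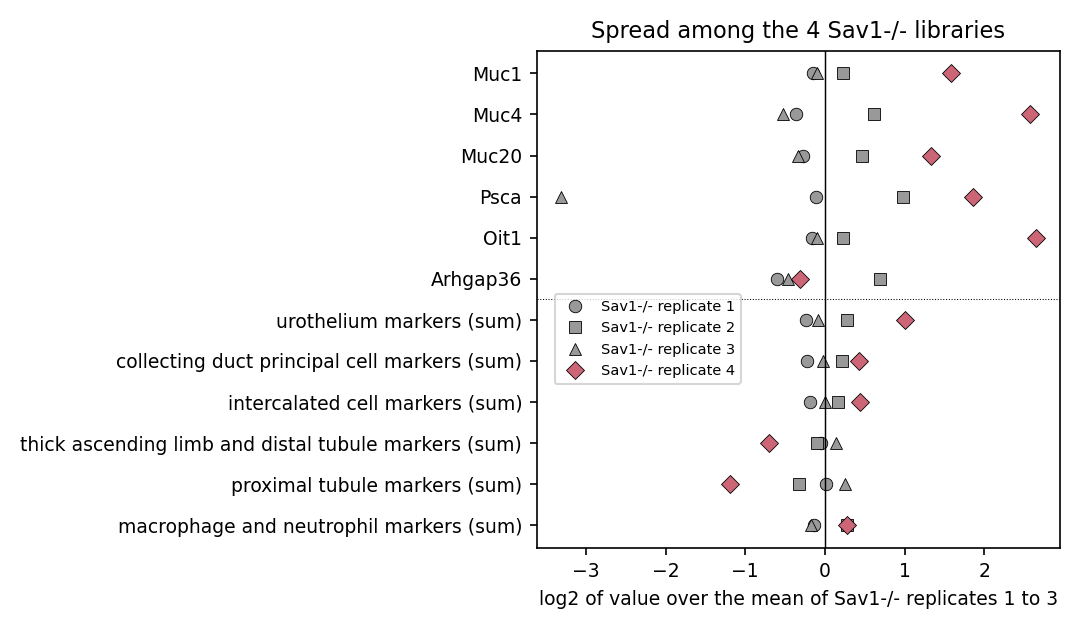
Points are the 4 Sav1-/- libraries, plotted as log2 of the value over the mean of replicates 1 to 3, for the 6 genes above the dotted line and for summed markers below it. Replicate 4 lies to the right for every gene except Arhgap36, and to the left for the proximal tubule and distal tubule sums.

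Because Psca and the mucins are also made by urothelium, its markers were read in the same libraries. Of the uroplakins, the plaque proteins that define the urothelial surface, 3 were at or near 0: Upk1b and Upk3a had 0 reads in the Sav1-/- libraries and Upk2 had 0, 1, 1 and 2. Upk1a had 10, 13, 17 and 14 reads, against 7, 7, 7 and 0 in the Sav1+/+ libraries, so it was present at a low level. Upk3b, which mesothelium also makes, had 7, 5, 6 and 31 reads in the Sav1-/- libraries and none in the Sav1+/+ libraries, and the uroplakin-like 2310043J07Rik (Upk3bl) had values of 7.81, 21.5, 9.48 and 46.3 against 0 in every Sav1+/+ library. The basal keratin Krt14 had no read in any library, Krt5 had at most 3 reads and Foxa1 at most 4 in a Sav1-/- library. Grhl3, also below the filter, had values of 5.47, 18.6, 7.11 and 21.7 in the Sav1-/- libraries against 0 in every Sav1+/+ library. Ivl had values of 1.96 to 7.87 against 0 to 2.87, and Sprr2a1 of 0.781 to 4.89 against 0 to 0.838. For comparison, Psca had 381, 653, 41 and 1188 reads in the Sav1-/- libraries. Summed over these libraries, Psca had 2263 reads, Upk1a 54 and Upk3b 49. Of the 17 urothelial markers in the table, 6 passed the filter and all 6 rose in the limma fit, beside 43.9% called higher over all tested genes. Their median log2 fold change was 3.98, or 3.44 over the 5 tested without Sav1-/- replicate 4. One of the 6, 2310043J07Rik, passed the filter only through the group where it was high. Among the most abundant were markers that other epithelia share: the tight junction protein claudin 4 (Cldn4) went from 407 ± 88.3 to 6285 ± 3877, the epithelial transcription factor Elf3 from 358 ± 68.7 to 2818 ± 1465 and keratin 20 (Krt20) from 41.6 ± 47.2 to 2572 ± 808 (SD, n = 4 each). Without Sav1-/- replicate 4 the Sav1-/- means were 4369 for Cldn4 and 2107 for Elf3. Their adjusted p-values by limma were 1.17e-05, 2.77e-05 and 0.000139. Sprr1a, a cornified envelope protein that has close paralogs, rose from 17.7 ± 18.1 to 422 ± 182 (adjusted p = 0.000463 by limma). The basal cell factor Trp63 had values of 28.1, 4.19, 6.70 and 5.15 in the Sav1+/+ libraries and of 28.1, 30.3, 27.7 and 28.5 in the Sav1-/- libraries. Sav1+/+ replicate 1 overlapped the Sav1-/- range of Trp63, which was called higher (adjusted p = 0.0140 by limma), a call lost with quantile normalization. The marker sum ran from 648 to 976 in the Sav1+/+ libraries, from 8243 to 11794 in Sav1-/- replicates 1 to 3 and reached 19581 in replicate 4.

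**Figure D3:**
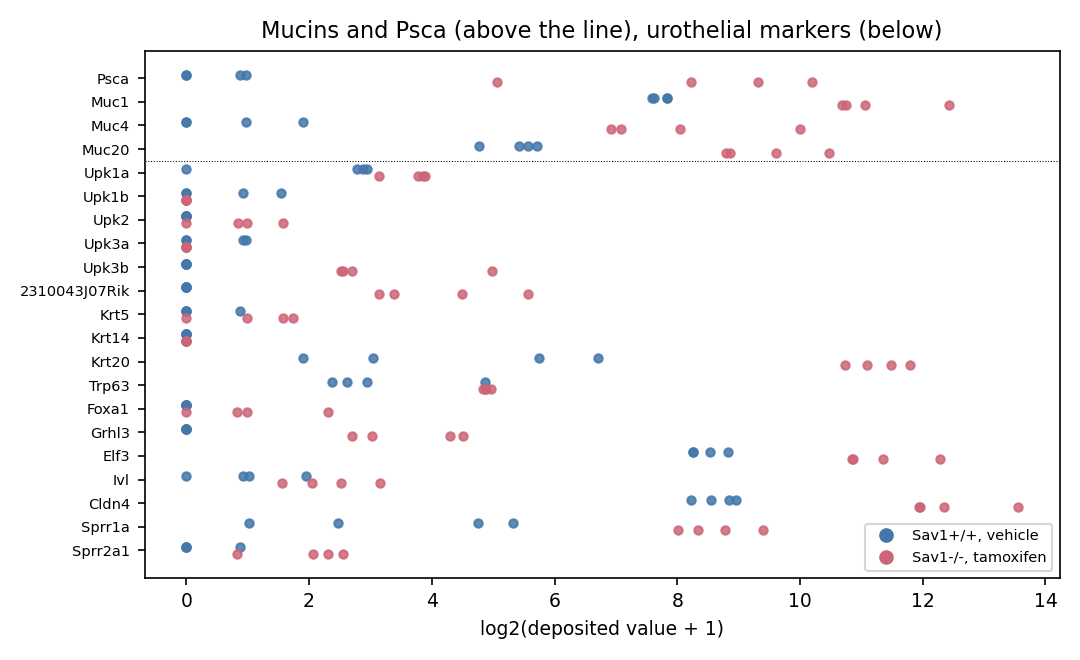
Each point is 1 library, as log2(deposited value + 1), for Psca and the mucins above the dotted line and for the urothelial marker list below it. Upk1b, Upk2, Upk3a and the basal keratin Krt14 lie at or near 0 in both groups, whereas Cldn4, Elf3 and Krt20 lie far higher in the Sav1-/- libraries.

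Levels of different genes can be compared only per length, so values were divided by the length of the longest annotated transcript, in kilobases. In the Sav1-/- libraries the order of the per-kilobase levels was Muc1 at 1228 ± 825, Psca at 621 ± 570, Oit1 at 271 ± 309, Muc20 at 212 ± 124, Arhgap36 at 89.4 ± 42.0 and Muc4 at 34.2 ± 38.2 (SD, n = 4 each). Without Sav1-/- replicate 4 these levels were 818 for Muc1, 375 for Psca, 117 for Oit1, 153 for Muc20, 93.9 for Arhgap36 and 15.3 for Muc4, so that Muc20 then came before Oit1. The ranges of every pair of neighbours in this order overlapped. Muc1 was above Psca in 4 of 4 libraries, Psca above Oit1 in 3, Oit1 above Muc20 in 1, Muc20 above Arhgap36 in 4 and Arhgap36 above Muc4 in 3. In the Sav1+/+ libraries Muc1 stood at 93.6 ± 8.55 per kilobase and Muc20 at 11.3 ± 2.98, with the other 4 genes near 0. Muc1 was thus the most abundant of the 6 transcripts per length in both groups.

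Muc4 and Muc20 are neighbours on chromosome 16, on opposite strands, and share 627 exonic bases, which are 5.3% of the exonic bases of Muc4 and 15.6% of those of Muc20 in the GRCm38 annotation. The strand setting of the authors' counting is not known here, and without it reads from the shared stretch cannot be told apart. At the average level of Muc20 per base, that stretch would hold a value of 121 in the Sav1-/- libraries, which is 31.4% of the Muc4 mean (21.6% to 57.5% by library). The same calculation for the Sav1+/+ libraries gives 6.47, above the Muc4 value observed there, 0.919. In the other direction Muc4 would add 20.6 to Muc20 in the Sav1-/- libraries, or 2.65% of its mean. The other 4 genes share no exonic bases with another gene.

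Of the genes beside the members on the chromosome, apart from the Muc4 and Muc20 pair, 3 were called, all higher. Among all tested genes, 43.9% were called higher and the median log2 fold change was 0.23. Trim46, a microtubule-associated protein gene next to Muc1, had values of 10.9, 10.1, 28.7 and 13.4 in the Sav1+/+ libraries and of 137, 151, 133 and 221 in the Sav1-/- libraries. These did not overlap, and Trim46 rose with a log2 fold change of 3.36 (SE 0.33, adjusted p = 2.07e-05 by limma). Beside Psca, 4930572J05Rik (Them6) rose by 0.81 on the log2 scale (adjusted p = 0.000664 by limma). Beside Muc20, 1700021K19Rik (Rubcn) rose by 0.24 (adjusted p = 0.0459 by limma), near the median of all tested genes. Beside Oit1, Fam107a (0.25, adjusted p = 0.385) and 4930452B06Rik (Cfap20dc; -0.44, adjusted p = 0.0736) were not called by limma, nor was Enox2 beside Arhgap36 (0.19, adjusted p = 0.147). Mir92b beside Muc1 and Olfr1320 beside Arhgap36 were at 0 in all libraries, and Gm10818 (Tnk2os) beside Muc4 and 4933427E11Rik beside Psca were below the filter on low values.

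Each profile over the 8 libraries was also compared with those of 12376 genes, by the root mean square difference of log2 values centred on each gene's own mean. Nearest to Muc1 were the stress kinase gene Mapk11 at 0.16 log2 units, the calcium channel gene Itpr3 at 0.17 and Marcksl1 at 0.18. Near to Muc20 were Cldn4 at 0.19 and the calcium sensor gene Hpcal4 at 0.22. Muc1 and Muc20 lay 0.38 apart, the closest pair among the 6. The genes near-absent from the controls had looser neighbours: Oit1 lay 0.39 from Cxcl5, 0.60 from the chemokine Ccl20 and 0.77 from Slc14a2, and Muc4 lay 0.71 from the scavenger receptor gene Scara3, 0.77 from Cxcl5 and 0.82 from Spink12. Arhgap36 lay 0.74 from Ccl20, 0.74 from Slc14a2 and 0.77 from the chemokine Cxcl17. Psca had the most distant ones, Spink12 at 0.99, Slc14a2 at 1.05 and Cxcl5 at 1.12. These distances describe the same 8 libraries and include the difference between the groups.

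Among other mucins and mucin-like proteins, the list held 13 genes in the table, of which 7 were tested. The median log2 fold change was 0.58 against 0.23 over all tested genes. In this list 4 genes rose and 1 fell, beside 43.9% higher and 25.2% lower over all tested genes. Of the 4, Muc13 and Ovgp1 passed the filter only through the group where they were high, so they had to differ to be tested. Muc13, a membrane mucin of gut epithelium, had 0, 1.68, 0 and 0 in the Sav1+/+ libraries and 71.8, 35.2, 33.2 and 31.5 in the Sav1-/- libraries. The groups were apart and both were low. Parm1 rose from 69.4 ± 5.47 to 149.9 ± 31.6 and the adhesion molecule Mcam from 224 ± 24.6 to 335 ± 42.9 (SD, n = 4 each). Both of these calls were lost with quantile normalization, which left 1 gene of the list higher. Podocalyxin (Podxl), the sialomucin of podocytes, fell from 2378 ± 371 to 1266 ± 580 (adjusted p = 0.0267 by limma), a call lost with equal library totals and without Sav1+/+ replicate 1, Sav1+/+ replicate 3 or Sav1-/- replicate 2. The count of lower genes was then 0, and it was 2 without Sav1-/- replicate 1 or replicate 4. Cd164, the most abundant of the list, had means of 8899 ± 1174 and 8595 ± 3118 and was not called (log2 fold change -0.14, adjusted p = 0.681 by limma).

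For the enzymes that build O-linked mucin sugars, calls went in both directions. Of 31 listed genes present, 20 were tested and 11 were below the filter. Of the 20, 7 rose, 7 fell and 6 were not called, with a median of -0.01, beside 43.9% higher and 25.2% lower over all tested genes. With equal library totals 12 rose and the median was 0.37. The polypeptide GalNAc-transferases, which add the founding sugar, went both ways, with 4 lower and 3 higher. Of those that fell, Galnt11, the most abundant, went from 16873 ± 2020 to 4548 ± 1929, Galnt14 from 2214 ± 94.3 to 709 ± 81.6, Galnt1 from 5671 ± 497 to 2069 ± 347 and Galnt3 from 2001 ± 197 to 939.6 ± 41.8 (SD, n = 4 each). Of those called higher, Galnt12 went from 20.1 ± 10.3 to 177 ± 40.8, Galnt4 from 323 ± 41.5 to 429 ± 14.3 and Galnt6, which passed the filter only through its high group, from 7.42 ± 1.16 to 35.5 ± 5.14. The Galnt4 call was lost with median-of-ratios and with quantile scaling. The branching enzyme Gcnt1, by far the more abundant of its kind, fell from 12637 ± 1986 to 4187 ± 1749 (adjusted p = 0.000796 by limma). The sialyltransferase St3gal2 rose from 172 ± 20.2 to 655 ± 35.1, St3gal1 from 137 ± 34.0 to 557 ± 91.7 and another branching enzyme, Gcnt4, from 39.9 ± 14.8 to 386 ± 81.3. Apart from Galnt12, Galnt4, Galnt6 and Gcnt1, these had adjusted p-values by limma between 1.12e-06 and 0.000286.

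In the Ly6/uPAR family, to which Psca belongs, 14 of 30 genes were tested, 9 rose and 1 fell, beside 43.9% and 25.2% of all tested genes (median log2 fold change 0.85, or 0.30 with quantile normalization). One of the 9, Ly6g6e, passed the filter only through its high group. Lypd6b rose from 59.2 ± 4.88 to 401 ± 92.9, the urokinase receptor Plaur from 27.4 ± 17.1 to 284 ± 91.4 and the complement inhibitor Cd59a from 437 ± 24.1 to 875 ± 64.0 (SD, n = 4 each). Their adjusted p-values by limma were 2.83e-06, 8.62e-05 and 8.04e-06. Ly6a, the most abundant, rose from 15549 ± 1426 to 27779 ± 8642 (adjusted p = 0.00514 by limma). Ly6c2 fell from 15.3 ± 4.57 to 7.26 ± 1.90 (adjusted p = 0.0248 by limma), and its call was lost with equal library totals and without Sav1+/+ replicate 1, Sav1+/+ replicate 2, Sav1-/- replicate 2 or Sav1-/- replicate 4. It has a near-identical copy, Ly6c1, so its value is uncertain. With no filter on low values 15 members were called higher.

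The FAM3 family of Oit1 had 2 other tested genes. Fam3c, a secreted protein known for a part in epithelial-mesenchymal transition, rose from 269 ± 19.8 to 971 ± 181 (SD, n = 4 each, adjusted p = 4e-06 by limma). Fam3a had means of 733 ± 41.7 and 626 ± 52.9 and was called lower (log2 fold change -0.23, adjusted p = 0.0367 by limma). With equal library totals its direction turned (0.15), and leaving out any library other than Sav1+/+ replicate 3 or Sav1-/- replicate 4 ended the call.

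Of the Hedgehog pathway, which Arhgap36 is known to activate, 9 of 16 genes were tested, 6 rose and 1 fell, with a median of 0.96, beside 43.9% higher and 25.2% lower over all tested genes. Of the 6, Gli3 and Kif7 passed the filter only through the group where they were high. The ligand Indian hedgehog (Ihh) rose from 279 ± 38.6 to 541 ± 38.9, and the co-receptors Boc and Cdon rose from 40.3 ± 5.62 to 149 ± 38.2 and from 147 ± 28.1 to 322 ± 33.6 (SD, n = 4 each). The inhibitor Sufu fell from 608 ± 71.7 to 292 ± 42.6. Their adjusted p-values by limma lay between 4.08e-05 and 0.00018. Ptch1 was also called higher, by 0.24 on the log2 scale (adjusted p = 0.0326 by limma). The median of all tested genes was 0.23. Gas1 was not called (-0.18, adjusted p = 0.307 by limma). Gli1 and Gli2 were below the filter, with 7 and 47 reads in the Sav1+/+ libraries and 31 and 25 in the Sav1-/- libraries. Activity of the pathway was not tested. The transducer Smo, the most abundant, had means of 1447 ± 82.6 and 1469 ± 160 and was not called (log2 fold change 0.02, adjusted p = 0.875 by limma), though with equal library totals it was called higher (0.40). With median-of-ratios and with quantile scaling 2 and 3 genes of the list were lower.

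Protein kinase A is the other known target of Arhgap36. All 9 of its subunits and inhibitors on the list were tested, 4 rose and 0 fell in the limma fit (0 also at an unadjusted p under 0.05), with a median of 0.25. Over all tested genes 43.9% were called higher, so this count is near the background. The regulatory subunits Prkar2b, Prkar1b and Prkar1a rose from 15.8 ± 7.22 to 122 ± 11.05, from 102 ± 17.3 to 314 ± 63.9 and from 4577 ± 133 to 6697 ± 540.1 (SD, n = 4 each, adjusted p 3.92e-05, 4.49e-05 and 0.000232 by limma). The counts moved with the scaling: all 9 rose with equal library totals, and 2 were lower with median-of-ratios scaling. Without Sav1-/- replicate 4, 1 was lower.

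Of the proteins known to bind or to shed the membrane mucins, 11 of 16 tested genes (18 in the table) rose and 3 fell, with a median of 0.70, beside 43.9% higher and 25.2% lower over all tested genes. The membrane metalloproteinase Mmp14, a sheddase of Muc1, went from 81.5 ± 24.4 to 1145 ± 206, the cytoskeletal linker moesin (Msn) from 1428 ± 257 to 8401 ± 1302 and the adhesion receptor Icam1 from 532 ± 123 to 2781 ± 488 (SD, n = 4 each). All 3 were called by limma, with adjusted p-values between 1.93e-06 and 3.93e-06. Erbb2, the receptor known as a partner of Muc4 (named after its value was seen), rose from 751 ± 129 to 2112 ± 385 (adjusted p = 2.29e-05 by limma). Met, the receptor known as a partner of Muc20, fell from 5222 ± 292 to 3580 ± 330 (adjusted p = 0.000406 by limma), and the adaptor Slc9a3r1 from 6728 ± 1013 to 4556 ± 96.2 (0.00151 by limma). Both calls, and that of radixin (Rdx; 4301 ± 280 and 3211 ± 788), were lost with quantile normalization and with equal library totals, which left 0 members lower. The radixin call was also lost without any 1 of the Sav1+/+ libraries or without Sav1-/- replicate 2. Beta-catenin (Ctnnb1), the most abundant, was called higher at 12499 ± 971 and 14693 ± 509 (adjusted p = 0.0413 by limma), a call lost with median-of-ratios scaling, with no filter on low values, with the replicate block and without any 1 library other than Sav1+/+ replicate 1 or Sav1-/- replicate 4.

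**Figure D4:**
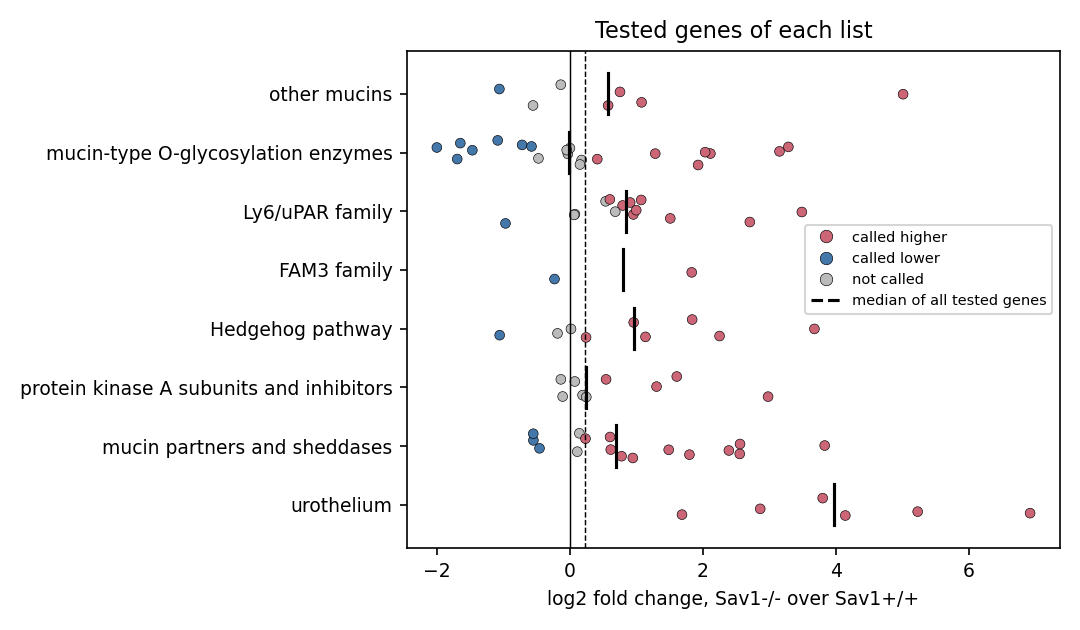
Each point is a tested gene of a list, plotted by its log2 fold change, Sav1-/- over Sav1+/+; colours give the limma call, the short vertical bars the list median and the dashed line the median of all tested genes. Both directions are seen among the O-glycosylation enzymes, while the partners lie mostly to the right.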

How the data were processed

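Poly(A) RNA of kidney cortex was sequenced in 8 libraries, 4 per group, and groups and replicate numbers came from the sample titles. RNA was extracted with a Qiagen column kit and stranded libraries were prepared, per the labels' protocols. Picard 1.64, SAMtools and RSEM were used with build mm9, per the submitters' processing notes. Aligner, annotation and strand setting: not given in the sources used here. The authors deposited 1 normalized signal per gene and library, which is no raw count. Per library, 92.7% to 93.3% of low values (under 400) came within 0.02 of a whole read, too few for a count model. RSEM divides reads that match several genes by an estimate, so repeats and near-identical copies are uncertain.

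Values were transformed to log2(value + 1), which understates changes of low genes. The 13677 genes with a mean of at least 10 entered a linear model in limma 3.58.1 under R 4.3.3 (intensity trend, 6 residual degrees of freedom), and genes with a Benjamini-Hochberg adjusted p under 0.05 over all of them were called. The fit was also run on simulated data with independent noise and few changed genes. In the real data 69.1% of tested genes were called, so that run does not show how the fit performs here. All fold changes are Sav1-/- over Sav1+/+. The labels do not tie each library to its own animal, and p-values therefore reflect only the spread among these libraries, possibly technical. The RefSeq and GENCODE tables used for sequences, lengths and neighbours belong to GRCm38, not to mm9.

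The genes followed and the gene lists were chosen with earlier results of these data known. Named genes were the 6 members, Sav1, the sex-chromosome check genes, up to 3 called genes per direction and the most abundant gene of each list, the 3 nearest profiles, the chromosome neighbours, and the 10 highest genes with at most 3 Sav1+/+ reads. One gene that this rule selects is left out of the text. Genes just outside those bounds, uroplakins, other urothelial markers, Gcnt1, Galnt4, Galnt6, Galnt12, Erbb2 and the genes said to pass the filter through 1 group were named after their values were seen. So were the single markers of tubule and collecting duct cells, and Ptch1, Gas1, Gli1 and Gli2. Alternatives were pseudocounts of 0.5 and 10, no filter, a filter of 50, 3 other scalings, no intensity trend, a replicate block and leaving out each library.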

Additional observations from a re-analysis of the deposited data

Results flagged for a closer look

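In 15 of 90 groups of 4 libraries, over 45 named genes, 1 library lay far from the other 3 by Dixon's ratio, which chance alone gives in about 1 group in 20. In 3 of the 15 the ratio only sets 2 reads against 3 libraries at 0, which the depth does not tell apart, so they are not to be counted against that rate. Among the genes followed, Sav1-/- replicate 4 stood above the others for Muc1 at 5507, for Muc4 at 1024 and for Oit1 at 919, and the same library stood out for Cldn4 at 12032. Sav1-/- replicate 2 stood above the others for Arhgap36, at 460.4. Sav1+/+ replicate 2 was the only control library with reads of Oit1, Arhgap36 and Muc13, each at 1.68, which is 2 reads. Muc13 was also high in Sav1-/- replicate 1, at 71.8.

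Among the enzymes and pathway genes, St3gal2 was high in Sav1+/+ replicate 3 at 202 and Gcnt4 in Sav1-/- replicate 2 at 507. Galnt11 was low in Sav1+/+ replicate 2 at 13873. Sufu was low in Sav1+/+ replicate 1 at 501 and high in Sav1-/- replicate 1 at 356. Msn was low in Sav1+/+ replicate 4 at 1043.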

How the results depend on the processing

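Muc1 and Muc20 kept their direction and their call in 34 of 34 alternatives, with log2 fold changes of 3.12 to 3.90 and 3.45 to 4.45. The median of all tested genes was 0.23 and moved by -0.22 with median-of-ratios scaling, -0.26 with quantile normalization and 0.39 with equal library totals, and the share of calls that were higher went from 63.5% to 49.7%, 48.2% and 81.8%. With equal totals 1946 genes were lower in place of 3452. Counts within lists moved in these cases. Other mucins higher were 2 with a filter of 50 and 1 with quantile normalization, and lower were 2 with median-of-ratios, quantile and replicate block, 0 with equal totals and 0 to 2 on leaving out 1 library. Of O-glycosylation enzymes 12 were higher with equal totals. Of the Ly6/uPAR family 15 were higher and 3 lower with no filter, and lower were 0 with a filter of 50, 3 with quantile, 0 with equal totals and 0 to 1 on leaving out 1 library. Of FAM3 genes 0 were lower with equal totals and with the replicate block, and 0 to 1 on leaving out 1 library. Fam3a reversed to 0.15 with equal totals. Hedgehog genes lower were 2 with median-of-ratios and 3 with quantile. Of protein kinase A genes 9 were higher with equal totals, 2 lower with median-of-ratios and 0 to 1 lower on leaving out 1 library. Of mucin partners 0 were lower with quantile and with equal totals. Of urothelial markers 10 were higher with no filter. The cause of these moves was not tested. Equal replicate numbers did not pair the libraries (correlations of deviations 0.144, 0.076, -0.169 and 0.135). With the replicate block the adjusted p by limma was 0.000145 for Muc1 and 6.94e-05 for Muc20. Values under 3 reads (2.34 to 3.09) were not told from 0.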
